A study of Mus musculus with 24 samples.

Results

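The 35 genes described here encode the enzymes and transporters of glycolysis (21 genes) and proteins of the cellular response to low oxygen (14 genes), listed by name. All 35 were found among the 23307 gene symbols of both deposited expression tables. Glycolysis splits glucose into pyruvate in the cytosol, and pyruvate is then either oxidised in mitochondria or reduced to lactate and exported. When oxygen is short, the transcription factor HIF-1 alpha escapes prolyl hydroxylation and degradation, binds DNA with its partner ARNT at short motifs containing ACGTG or GCGTG, and raises many genes of glycolysis. Macrophages activated by bacterial products depend strongly on glycolysis, whereas activation by interleukin 4 (IL4), the type 2 cytokine that drives alternative activation, is better known for fatty acid oxidation, although glucose use also rises.

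Bone marrow-derived macrophages (BMDM) were grown from C57BL/6 mice, wild type or labelled as Tet2 knockout, for 7 days in L929-conditioned medium with 10 ng/ml M-CSF. They were left untreated (0 h) or given 20 ng/ml IL4 for 10 h or 24 h, with 2 biological replicates in each of 6 groups. Tumour-associated macrophages (TAM) were CD11b+F4/80+ cells sorted 4 weeks after subcutaneous injection of YUMM1.7 cells, a mouse melanoma line, into C57BL/6J males aged 6 to 8 weeks, with 4 libraries from LysMcre wt/wt, Tet2 fl/fl hosts (called wild type) and 4 from LysMcre +/wt, Tet2 fl/fl hosts (called knockout). Every TAM host thus carried floxed Tet2 alleles, LysM-Cre acts mainly in myeloid cells, and YUMM1.7 is 1 tumour line. The labels do not say how Tet2 was removed in the BMDM donors, and the labels name no treatment with low oxygen. The BMDM kit removed ribosomal RNA, whereas the TAM kit kept RNA with polyA tails, so levels were not tested between the tables. Levels are FPKM, fragment numbers divided by the length of the transcript and by the size of the library, and can be compared between genes.

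Summed FPKM ran from 365118 to 557183 in the 12 BMDM libraries and from 337994 to 464812 in the 8 TAM libraries. The highest BMDM total belonged to wild-type 24 h replicate 2 and the lowest to wild-type 0 h replicate 2. The Tet2 level did not separate the genotype labels in a constant direction. It was 4.11 and 5.91 FPKM in untreated wild-type BMDM against 4.02 and 4.48 in the labelled knockout, which overlap. At 10 h the labelled knockout was lower (7.22 and 8.19 against 8.74 and 8.81 FPKM). At 24 h the labelled knockout was higher (11.3 and 10.3 against 9.38 and 9.82 FPKM). In TAM it was 7.75 to 16.1 FPKM in wild type against 14.4 to 19.0 in the knockout. A level summed over a gene does not test for a deletion inside it, so the genotypes are those of the labels. All 10 macrophage markers were present in every library, from 15.8 FPKM (Mertk) upwards in BMDM and from 21.9 FPKM (Mrc1) upwards in TAM. Their sum was lower after IL4 (15974 to 20778 FPKM untreated, 8437 to 13110 at 24 h) and at 24 h lower in the labelled knockout (8437 to 8479 against 11093 to 13110). Lyz2, at 6054 FPKM or more, made up most of the BMDM sum. The median log2 difference of the 10 markers at 24 h in wild type was only -0.24, with 2 called higher and 5 lower. The part of this sum in the results was not tested. Of 11 melanoma markers in TAM, Dct, Oca2, Slc45a2, Sox10 and Tyrp1 were listed at 0 in all libraries, Mitf stood at 3.6 to 5.28 FPKM and Gpnmb at 0.722 to 3.8, and the whole list summed to 5.64 to 8.92 FPKM. Wild-type TAM library 8 stood apart on the first principal component, and its 9 fibroblast markers summed to 253 FPKM against 11 to 28.9 in the other TAM libraries.

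In wild-type BMDM, 24 h of IL4 was accompanied by higher transcript levels along most of glycolysis, from glucose transporter to lactate exporter. A smaller set of members fell, 2 of them glycolysis genes and 3 hypoxia-response genes. Of the 32 members that passed the filter on low values (at least 1 FPKM in at least 2 BMDM libraries), 19 rose and 5 fell (limma on log2(FPKM + 1), Benjamini-Hochberg adjusted p under 0.05 over 10510 genes). Over all genes tested, 50.0% passed in either direction, 29.7% as higher and 20.3% as lower. Among the 21 glycolysis genes 16 rose and 2 fell, with a median log2 difference of 0.85 against 0.06 over all genes. Among the 14 other hypoxia-response and oxygen-sensing genes 11 were tested, of which 3 rose and 3 fell, with a median of 0.08. Egln3, Adm and Ddit4 were not tested, with at most 0.320, 0.333 and 1.09 FPKM in any BMDM library.

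At 10 h in wild-type cells 10 members rose and 5 fell, where 42.4% of all genes passed, 28.2% as higher and 14.2% as lower, so that the members were called about as often as genes in general. Their median log2 difference was 0.22 against 0.09 over all genes. Without wild-type 10 h replicate 1 the count was 8 members. The calls of Gpi1, Hk1, P4ha1, P4ha2, Pfkfb3, Pgam1 and Slc2a3 at 10 h were each lost when some 1 of the 4 wild-type libraries was left out (adjusted p 0.0518 to 0.212). In the labelled knockout 11 rose and 4 fell at 10 h (background 38.8%), and 20 rose and 5 fell at 24 h (background 43.7%, with 26.5% higher and 17.1% lower). The 10 h count in the labelled knockout was 8 without 0 h replicate 1, without 0 h replicate 2 and without 10 h replicate 1, and 9 without 10 h replicate 2, the calls lost being among Ero1l, Gpi1, Hk2, Kdm3a, Ldha, Mif, Pgam1 and Slc2a3 (adjusted p 0.051 to 0.223). At 24 h in the labelled knockout 16 calls held with each of its 4 libraries left out, and those of Aldoa, Gapdh, Hk1, Hk2, Hk3, P4ha1, Pdk1, Pfkfb3 and Tpi1 did not (adjusted p 0.056 to 0.23). At 24 h 18 members were higher and 5 lower in both genotypes. The share of all genes called alike in both was not computed, so this count has no background. The comparisons of the 2 genotypes share no library, but all 6 groups share the estimate of the spread. Comparisons of 10 h and 24 h with untreated cells use the same untreated libraries.

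**Figure D1:**
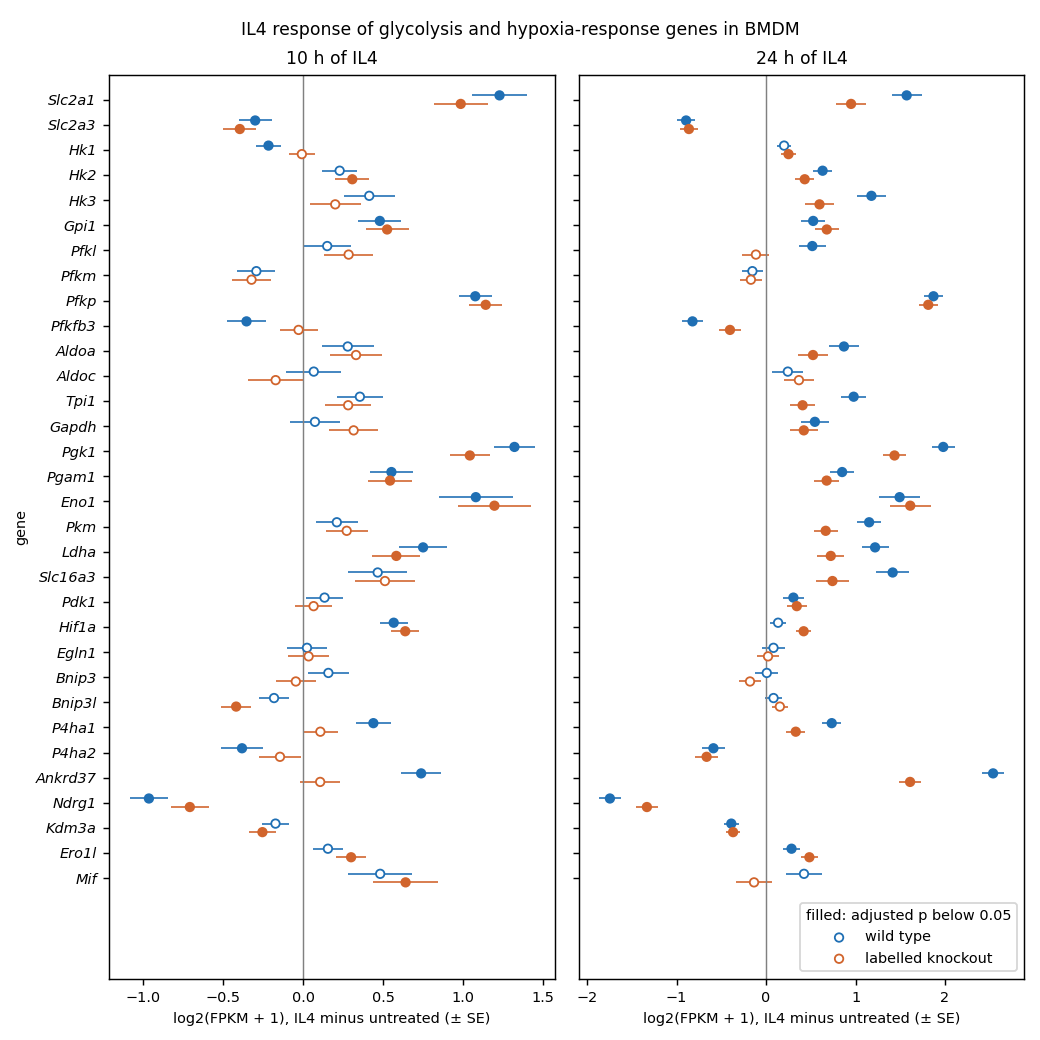
Difference in log2(FPKM + 1) between IL4-treated and untreated BMDM (x axis, ± standard error) for the 32 members tested (y axis), after 10 h (left) and 24 h (right), in wild type (blue) and the labelled knockout (orange); filled points passed the adjusted threshold. In wild type at 24 h 19 points are filled to the right of 0 and 5 to the left, with Ankrd37 farthest to the right and Ndrg1 farthest to the left.

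Glucose entry was the step at which paralogs went opposite ways. Slc2a1, the ubiquitous glucose transporter GLUT1, stood at 4.54 and 3.99 FPKM in untreated wild-type libraries, 12.5 and 10.2 at 10 h and 11.8 and 18.1 at 24 h. Every treated library exceeded every untreated one, although the 24 h replicates lay far apart. Such separation is common with 2 libraries per group: 27 of the 32 members had it at 24 h in wild type. The share over all genes was not computed. Its log2 difference at 24 h was 1.57 ± 0.17 (SE, limma adjusted p = 3.39e-05), and in the labelled knockout it was 0.95 ± 0.17 (limma adjusted p = 0.00111). Slc2a3, the high-affinity transporter GLUT3, stood at 3.25 and 2.96 FPKM untreated, 2.32 and 2.34 at 10 h and 1.21 and 1.21 at 24 h in wild type. It fell by 0.89 on the log2 scale (SE 0.10, limma adjusted p = 5.46e-05) and in the labelled knockout by 0.86 (SE 0.10, limma adjusted p = 7.22e-05). Slc2a1 accounted for 57.4% to 58.3% of the summed FPKM of the pair in untreated wild type and for 90.7% to 93.8% at 24 h.

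The phosphofructokinases catalyse the first committed step of glycolysis, and their 3 genes also diverged. Pfkp, the platelet isoform, read 10.0 and 9.13 FPKM in untreated wild type, 23.1 and 19.5 at 10 h and 36.3 and 39.0 at 24 h. It rose at both times without overlap, by 1.87 ± 0.10 (log2, SE, limma adjusted p = 2.87e-07) at 24 h in wild type and by 1.81 ± 0.10 in the labelled knockout (limma adjusted p = 3.89e-07). Pfkl, the liver isoform, differed by 0.52 ± 0.15 (limma adjusted p = 0.0159) at 24 h in wild type and by -0.11 ± 0.15 (limma adjusted p = 0.576) in the labelled knockout. Without wild-type 24 h replicate 2 the wild-type value for Pfkl was 0.30 (limma adjusted p = 0.11), without 0 h replicate 2 it was 0.36 (limma adjusted p = 0.121), and the difference between genotypes in its response did not pass (-0.63 ± 0.21, limma adjusted p = 0.181). Pfkm, the muscle isoform, stayed at 3.06 to 4.82 FPKM and passed in none of the 6 IL4 comparisons. Pfkp therefore made up 37.1% to 40.2% of the 3 genes' summed FPKM in untreated wild type, 62.8% to 68.3% at 24 h, and 74.3% in both labelled knockout libraries at 24 h. Pfkfb3, whose product makes the allosteric activator of phosphofructokinase, fell: 5.21 and 6.48 FPKM untreated against 2.59 and 3.14 at 24 h in wild type, a log2 difference of -0.82 ± 0.12 (limma adjusted p = 0.000272). In the labelled knockout the Pfkfb3 difference was -0.40 ± 0.12 (limma adjusted p = 0.0188), and with any 1 of its 4 libraries left out the adjusted p was 0.056 to 0.106.

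**Figure D2:**
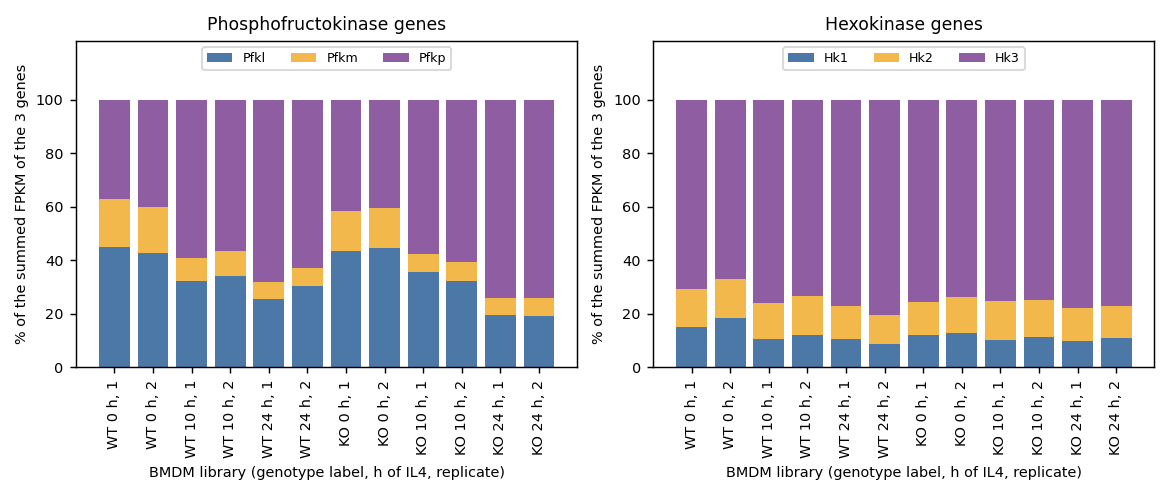
Share of the summed FPKM (y axis, %) held by each of the 3 phosphofructokinase genes (left) and the 3 hexokinase genes (right) in every BMDM library (x axis: genotype label, hours of IL4, replicate). The Pfkp share runs from 37.1% to 41.8% in the 4 untreated libraries and from 62.8% to 74.3% in the 4 libraries at 24 h, while Hk3 holds 67.1% or more of the hexokinase sum in each library.

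Hexokinases trap glucose inside the cell. Hk3, the myeloid-enriched hexokinase, was the most abundant of the 3 in every BMDM library, with 41.0 and 31.7 FPKM in untreated wild type and 71.3 and 96.1 at 24 h, a rise of 1.18 ± 0.16 (log2, limma adjusted p = 0.000176). Hk2, the inducible form, went from 8.22 and 6.89 FPKM to 11.4 and 13.1 at 24 h, a rise of 0.63 ± 0.11 (limma adjusted p = 0.000782). Hk1 ranged from 6.84 to 10.3 FPKM over the BMDM libraries. In wild type it was lower at 10 h (-0.22 ± 0.08, limma adjusted p = 0.0481) and higher at 24 h than at 10 h (0.42 ± 0.08, limma adjusted p = 0.00381), with 0.20 ± 0.08 for 24 h against untreated (limma adjusted p = 0.0563) and 0.25 ± 0.08 in the labelled knockout (limma adjusted p = 0.0261). The remaining upper enzymes moved less than Pfkp. In wild type at 24 h the log2 differences were 0.53 for Gpi1 (glucose phosphate isomerase), 0.87 for Aldoa (the main aldolase, 99.3% to 99.7% of the aldolase sum in wild-type BMDM) and 0.98 for Tpi1 (triose phosphate isomerase), each past the threshold in both genotypes. Without wild-type 0 h replicate 2 the adjusted p of Gpi1 was 0.052, and without 24 h replicate 2 its difference was 0.31. After quantile normalization the wild-type values were 0.20 for Aldoa (limma adjusted p = 0.124) and 0.15 for Gpi1 (limma adjusted p = 0.17), past no threshold, and 0.48 for Tpi1. In the labelled knockout they were then 0.21 for Aldoa (limma adjusted p = 0.118) and 0.10 for Tpi1 (limma adjusted p = 0.334). Aldoc, the minor aldolase, differed by 0.24 ± 0.17 and did not pass (limma adjusted p = 0.263).

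All 5 genes of the lower, energy-yielding steps rose at 24 h in both genotypes, Gapdh with the exceptions given below. Pgk1, phosphoglycerate kinase, read 90.1 and 72.1 FPKM in untreated wild type, 216 and 191 at 10 h and 311 and 331 at 24 h, while in the labelled knockout it read 115 and 110, 237 and 229, and 293 and 321. The 3 times were fully separated in each genotype. Its 24 h rise was 1.98 ± 0.13 (log2, limma adjusted p = 7.84e-07) in wild type and 1.44 ± 0.13 (limma adjusted p = 8.73e-06) in the labelled knockout. Eno1, the main enolase, went from 68.2 and 80.1 FPKM to 156 and 282 at 24 h in wild type, a rise of 1.49 ± 0.23 (limma adjusted p = 0.000407), with the replicates of 24 h well apart. Pkm (pyruvate kinase) rose by 1.15, Pgam1 (phosphoglycerate mutase) by 0.85 and Gapdh by 0.55 at 24 h in wild type. Quantile normalization lowered these to 0.46 for Pkm, 0.34 for Pgam1 and 0.99 for Eno1, all still called. The Gapdh value rests on scaling and on single libraries: it was -0.0853 (limma adjusted p = 0.659) after quantile normalization (0.0309, adjusted p = 0.888, in the labelled knockout), 0.41 (limma adjusted p = 0.0674) without wild-type 0 h replicate 1 and 0.33 (limma adjusted p = 0.0889) without wild-type 24 h replicate 2. Gapdh, Aldoa, Pgk1, Ldha and other glycolytic genes have near-identical processed copies in the mouse genome, and how reads shared with those copies were assigned is not given in the sources used here.

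At the pyruvate branch, the 3 genes measured rose at 24 h in both genotypes. Ldha, which reduces pyruvate to lactate, read 135 and 108 FPKM in untreated wild type, 208 and 199 at 10 h and 244 and 326 at 24 h, a 24 h rise of 1.22 ± 0.15 (log2, limma adjusted p = 9.48e-05), or 0.69 after quantile normalization. Slc16a3, the lactate exporter MCT4, read 11.5 and 8.30 FPKM untreated, 14.7 and 13.2 at 10 h and 22.2 and 34.6 at 24 h. It rose by 1.41 ± 0.18 at 24 h (limma adjusted p = 0.000138), whereas its 10 h difference of 0.46 ± 0.18 did not pass (limma adjusted p = 0.0654). Pdk1, the kinase that inactivates pyruvate dehydrogenase, rose by only 0.30 ± 0.11 (limma adjusted p = 0.0469), with an adjusted p of 0.275 without wild-type 0 h replicate 2 and 0.224 without wild-type 24 h replicate 2.

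The oxygen sensor genes followed another course. Hif1a, which encodes HIF-1 alpha, read 26.3 and 24.2 FPKM in untreated wild type, 37.5 and 38.1 at 10 h and 27.4 and 28.2 at 24 h. It was highest at 10 h and near its untreated level at 24 h. Its log2 difference was 0.56 ± 0.09 at 10 h (limma adjusted p = 0.000529) and 0.13 ± 0.09 at 24 h (limma adjusted p = 0.224), and 24 h lay below 10 h by -0.43 ± 0.09 (limma adjusted p = 0.00538, or 0.0545 without wild-type 10 h replicate 2). In the labelled knockout Hif1a read 24.5 and 24.1 FPKM untreated, 37.0 and 39.8 at 10 h and 31.9 and 33.8 at 24 h, so that its 24 h difference passed there (0.42 ± 0.09, limma adjusted p = 0.00294). The difference between genotypes in that response did not pass (0.29 ± 0.12, limma adjusted p = 0.259). Egln1, the main prolyl hydroxylase that marks HIF-1 alpha for degradation, stayed at 6.65 to 9.30 FPKM and passed in no IL4 comparison. These are transcript levels, and HIF-1 alpha protein was not measured.

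Among the other hypoxia-response genes the largest rise and the largest fall of all members stood side by side. Ankrd37, which encodes an ankyrin repeat protein and is a known HIF target, read 2.09 and 1.72 FPKM in untreated wild type, 4.32 and 3.39 at 10 h and 15.0 and 16.7 at 24 h. The mean level at 24 h was 8.32 times the untreated one, and the log2(FPKM + 1) difference was 2.54 ± 0.12 (limma adjusted p = 1.05e-07). Ndrg1, a stress and differentiation gene also known as a HIF target, read 12.6 and 10.9 FPKM untreated, 5.48 and 5.59 at 10 h and 2.43 and 3.21 at 24 h. Its untreated mean was 4.17 times that at 24 h, and the difference was -1.75 ± 0.12 (limma adjusted p = 1.43e-06) in wild type and -1.33 ± 0.12 (limma adjusted p = 1.04e-05) in the labelled knockout.

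Paralogs of collagen prolyl hydroxylase again went apart. P4ha1, a catalytic subunit, rose by 0.73 ± 0.11 (log2, limma adjusted p = 0.000295) at 24 h in wild type, from 16.1 and 13.0 to 24.1 and 25.4 FPKM. P4ha2, the other catalytic subunit, fell by 0.59 ± 0.13 (limma adjusted p = 0.00369), from 2.58 and 1.66 to 1.03 and 1.07 FPKM; without wild-type 0 h replicate 1 the difference was -0.38. Kdm3a, a histone demethylase, fell from 11.8 and 11.3 to 8.31 and 8.83 FPKM (-0.39 ± 0.08, limma adjusted p = 0.00292). Ero1l, an oxidase for disulfide bonds in the endoplasmic reticulum, rose by 0.28 ± 0.09 (limma adjusted p = 0.0292, or 0.107 without wild-type 0 h replicate 2 and 0.0856 without wild-type 24 h replicate 2). Bnip3, a mitophagy receptor, stayed at 13.2 to 18.3 FPKM with a 24 h difference of 0.01 ± 0.13 (limma adjusted p = 0.968). Its paralog Bnip3l differed by 0.08 at 24 h in wild type, and in the labelled knockout it fell at 10 h (-0.42 ± 0.09, limma adjusted p = 0.00451) and stood higher again at 24 h (24 h against 10 h, 0.57 ± 0.09, limma adjusted p = 0.00137). Mif, a cytokine gene, passed at 10 h in the labelled knockout (0.64 ± 0.20, limma adjusted p = 0.0284, or 0.0919 to 0.119 with any 1 of its 4 libraries left out) and not in wild type (0.48 ± 0.20, limma adjusted p = 0.0784), and the difference between genotypes was 0.16 ± 0.29 (limma adjusted p = 0.994).

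**Figure D3:**
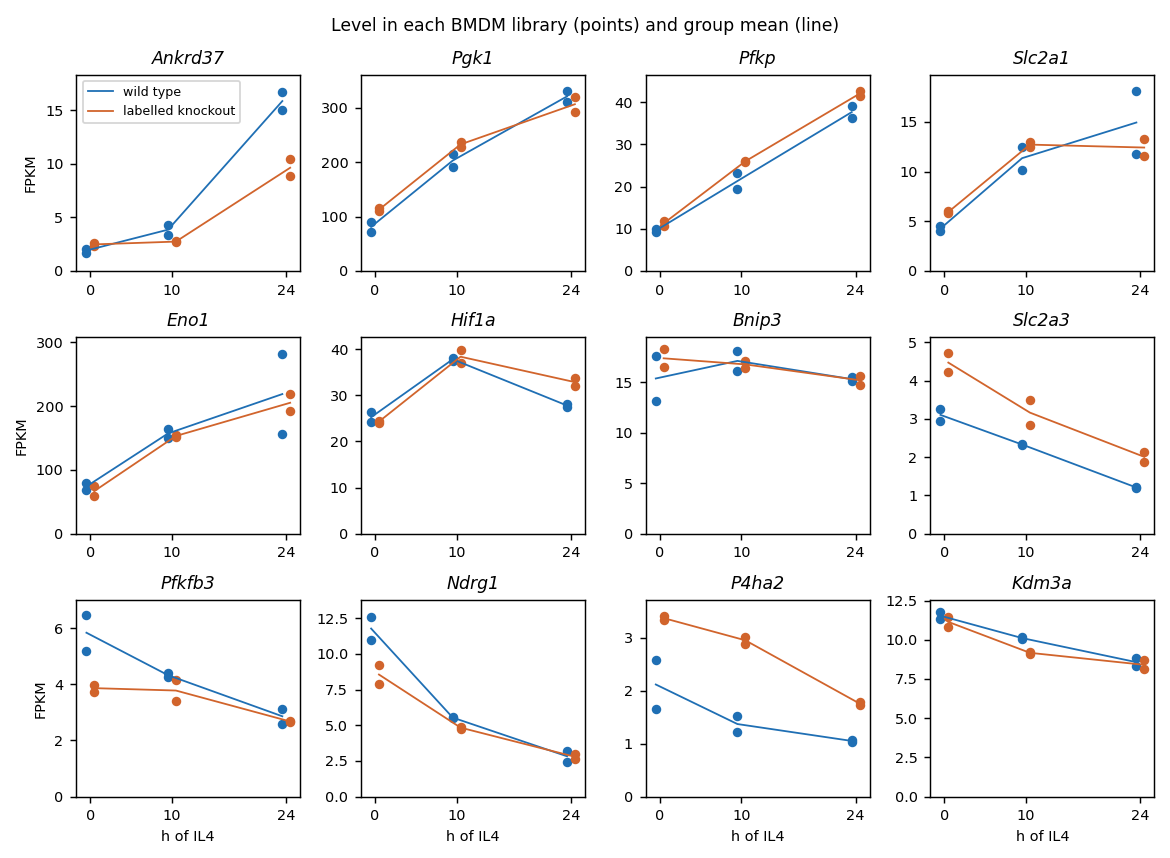
Level of 12 members (y axis, FPKM from 0) in each BMDM library (points) with group means (lines) against hours of IL4 (x axis), wild type in blue and the labelled knockout in orange. The upper row and Eno1 rise, Hif1a peaks at 10 h at 37.0 to 39.8 FPKM, Bnip3 is level, and Slc2a3, Pfkfb3, Ndrg1, P4ha2 and Kdm3a fall.

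Between 10 h and 24 h the members did not move as 1 block. In wild type 12 members were higher at 24 h than at 10 h and 4 lower (background 25.9%, with 11.6% higher and 14.3% lower), and in the labelled knockout 6 were higher and 5 lower (background 23.0%, with 12.1% and 10.9%). Ankrd37 gained most in both, with 1.80 ± 0.12 (log2, limma adjusted p = 1.24e-05) in wild type and 1.5 ± 0.12 (limma adjusted p = 3.02e-05) in the labelled knockout. Pkm gained 0.94 in wild type in this interval after a 10 h difference of 0.21 that had not passed, and Slc16a3 gained 0.95. Slc2a1 changed by 0.34 ± 0.17 (limma adjusted p = 0.161) and Eno1 by 0.41 ± 0.23 (limma adjusted p = 0.214), so most of their difference was present at 10 h. Without wild-type 10 h replicate 2 the wild-type count was 7. With each labelled knockout library left out in turn, its count was 4 or 5.

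As a share of all FPKM, the 35 members rose from 0.384% and 0.417% in untreated wild type to 0.467% and 0.443% at 10 h and 0.589% and 0.648% at 24 h. In the labelled knockout the shares were 0.410% and 0.402%, 0.527% and 0.516%, and 0.626% and 0.597%. The 3 times did not overlap in either genotype. Transcripts of 21 cell cycle genes moved with IL4 as well, with sums of 138 to 169 FPKM untreated and 322 to 326 at 24 h in wild type. Pcna, at 87.9 to 351 FPKM over the BMDM libraries, was the largest part of the sum. In wild type 18 of the 21 were called higher and 0 lower at 24 h, with a median log2 difference of 0.90. At 10 h 2 were called higher and 1 lower, with a median of -0.07. Whether proliferation took part in the glycolytic change was not tested. Scaling also mattered for the balance of all genes: 59.4% of the genes called at 24 h in wild type were higher as deposited, 50.3% after median-of-ratios scaling and 47.6% after quantile normalization, and the members higher and lower were then 18 and 6, or 15 and 5. For 10 h in wild type, where median-of-ratios scaling moved the median of all genes from 0.094 to -0.031 and that of the members from 0.218 to 0.07, the share higher was 66.5%, 48.9% and 48.9%, for 10 h in the labelled knockout 62.3%, 50.1% and 48.8%, and for 24 h there 60.8%, 50.9% and 48.3%.

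Genes of the same pathways that are not members gave a more even picture. Of 45 other genes of glycolysis, pyruvate and pentose phosphate metabolism 34 were tested, and at 24 h in wild type 13 rose and 5 fell with a median of 0.16. The 4 with the smallest p were Slc16a1, a proton-linked lactate and pyruvate carrier (1.95 ± 0.10), Bsg, the chaperone of those carriers (1.02 ± 0.10), Pfkfb4, a paralog of Pfkfb3 (1.34 ± 0.13), and Tkt, transketolase of the pentose phosphate pathway (1.51 ± 0.15). Slc16a1 rose in step with Slc16a3, from 2.87 and 3.42 FPKM to 14.4 and 15.6 in wild type, and Pfkfb4 rose where Pfkfb3 fell. Of 51 other oxygen sensing and hypoxia genes 41 were tested, 12 rose and 14 fell, with a median of -0.07. Bhlhe40, a transcriptional repressor (3.27 ± 0.10), Tfrc, the transferrin receptor (2.43 ± 0.11), and Ak4, a mitochondrial adenylate kinase (1.59 ± 0.13), rose, and the chemokine receptor gene Cxcr4 fell (-1.72 ± 0.13). The hypoxia list was thus divided between rises and falls at 24 h, and 29.7% and 20.3% of all genes passed in the same directions.

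The motifs ACGTG and GCGTG, at the core of the HIF binding site, were counted on either strand in the 250 bases before each transcription start in RefSeq promoter windows (GRCm38.p6), with overlapping matches allowed. Windows were found for 31 members, 46 in all because some genes have several starts, and Slc2a3, Bnip3l, Ndrg1 and Ero1l had none in the table. Either motif was found in 36 of the 46 windows (78.3%), against 57.0% of 9908 windows of genes tested in BMDM and 38.6% of all 32851 windows. Some windows of a gene share bases, as for Eno1, Aldoa and Pfkm, so the 46 are not independent. The members were listed by name as glycolysis and hypoxia-response genes, some of them known HIF targets. A high share of HIF motifs is therefore no independent result. ACGTG, with or without GCGTG, was found in 47.8% of the members' windows and 22.6% of those of tested genes. GCGTG, with or without ACGTG, was found in 52.2% and 45.4%. Members that rose at 24 h in wild type held either motif in 20 of 25 windows, those that fell in 4 of 6, and the rest in 12 of 15. The 6 windows of fallers came from only 3 genes, and Ndrg1 and Slc2a3, which also fell, had none. These windows are too few to say whether the motifs part risers from fallers. The 250 bases before the start of 5 members are shown 5′ to 3′ on the gene's strand, with each match to either motif, on either strand, in capitals: Ankrd37, Pgk1 and Pfkp (the largest rises among members with 1 window), P4ha2 (the only fall among them) and Bnip3 (no change that passed).
Ankrd37, chr8:45999851-46000100, minus strand: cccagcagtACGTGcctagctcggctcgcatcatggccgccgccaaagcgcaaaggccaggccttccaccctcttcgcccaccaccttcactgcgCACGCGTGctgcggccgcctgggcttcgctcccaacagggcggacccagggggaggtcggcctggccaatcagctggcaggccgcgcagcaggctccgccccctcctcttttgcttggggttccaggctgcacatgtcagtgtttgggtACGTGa
Pgk1, chrX:106186850-106187099, plus strand: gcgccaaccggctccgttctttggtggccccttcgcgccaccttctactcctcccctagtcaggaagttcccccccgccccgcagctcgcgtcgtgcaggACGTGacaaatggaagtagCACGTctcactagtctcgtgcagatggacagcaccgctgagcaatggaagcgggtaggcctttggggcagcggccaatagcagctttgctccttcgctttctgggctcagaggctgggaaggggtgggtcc
Pfkp, chr13:6648772-6649021, minus strand: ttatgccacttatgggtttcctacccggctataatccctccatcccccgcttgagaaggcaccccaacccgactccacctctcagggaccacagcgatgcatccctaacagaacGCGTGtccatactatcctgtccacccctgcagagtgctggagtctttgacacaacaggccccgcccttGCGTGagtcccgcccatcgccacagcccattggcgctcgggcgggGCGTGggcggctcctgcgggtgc
P4ha2, chr11:54100674-54100923, plus strand: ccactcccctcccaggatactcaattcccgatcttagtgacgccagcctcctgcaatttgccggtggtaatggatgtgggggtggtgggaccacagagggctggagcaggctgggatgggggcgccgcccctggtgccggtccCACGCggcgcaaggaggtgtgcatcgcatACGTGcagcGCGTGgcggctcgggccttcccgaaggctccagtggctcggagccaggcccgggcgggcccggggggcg
Bnip3, chr7:138909507-138909756, minus strand: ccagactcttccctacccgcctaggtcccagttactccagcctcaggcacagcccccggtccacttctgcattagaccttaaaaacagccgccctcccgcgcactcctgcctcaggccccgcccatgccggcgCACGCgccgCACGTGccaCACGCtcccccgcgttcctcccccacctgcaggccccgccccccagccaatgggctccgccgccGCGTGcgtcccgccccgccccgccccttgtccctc
Ankrd37 holds ACGTG 2 times and GCGTG 2 times in this window, Pgk1 has 2 matches of ACGTG only and Pfkp 3 of GCGTG only. P4ha2 holds 1 ACGTG and 2 GCGTG, and Bnip3 holds 2 and 3, with 1 palindrome CACGTG counted on both strands, although neither rose. A match is a run of letters and not a measured binding site.

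Far fewer members differed between the genotype labels than with IL4. In untreated BMDM no member passed between labelled knockout and wild type by limma (11 members and 14.5% of all genes had an unadjusted p under 0.05), where 2.70% of all genes passed, 1.89% as higher and 0.809% as lower. Without wild-type 0 h replicate 1, 8 members passed, 7 of them higher, while 13.2% of all genes passed in that fit. At 10 h 1 member was higher (background 2.84%, with 1.75% higher), and at 24 h 2 were higher and 1 lower (background 7.43%, with 5.29% higher and 2.14% lower). Averaged over the 3 times, 4 members were higher and 2 lower in the labelled knockout, where 9.94% of all genes passed, 7.06% as higher and 2.88% as lower. The counts at 10 h and 24 h are near their backgrounds, and the count for the average exceeds its background by a few genes. With the other scalings the share of called genes that were higher fell from 71.0% to 56.4% and 54.2% for the average, from 71.2% to 48.1% and 53.0% at 24 h, and at 0 h from 70.1% to 63.8% and 60.1%.

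P4ha2 had the smallest adjusted p of the members. It read 2.58 and 1.66 FPKM untreated, 1.52 and 1.22 at 10 h and 1.03 and 1.07 at 24 h in wild type, against 3.33 and 3.42, 3.02 and 2.89, and 1.78 and 1.74 in the labelled knockout. The labels did not overlap at any time. With 2 libraries per group this is common: they did not overlap in 18, 24 and 16 of the 32 members tested at 0 h, 10 h and 24 h. The share over all genes was not computed. The log2(FPKM + 1) difference was 0.74 ± 0.13 at 10 h (limma adjusted p = 0.0124) and 0.56 ± 0.07 over the 3 times (limma adjusted p = 0.000971). At 10 h the adjusted p was 0.138 without wild-type replicate 2, 0.102 without knockout replicate 1 and 0.0838 without knockout replicate 2, with 0 members called in each case. P4ha2 is a collagen-modifying enzyme that fibroblasts also express strongly. The 9 fibroblast markers summed to 4.55 and 4.92 FPKM in untreated wild type against 21.1 and 23.0 in the labelled knockout, 4.33 to 5.00 against 19.6 to 20.5 at 10 h and 2.52 to 2.55 against 9.30 to 9.51 at 24 h. In a bulk library fewer cells of a type and less RNA per cell cannot be told apart, and the part of fibroblast RNA in the P4ha2 difference was not tested.

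Slc2a3 was also higher in the labelled knockout at each time without overlap, at 4.23 and 4.71 FPKM untreated, 3.48 and 2.84 at 10 h and 2.15 and 1.87 at 24 h, against the wild-type values given above. The difference was 0.45 ± 0.10 at 24 h (log2, limma adjusted p = 0.0286) and 0.39 ± 0.06 over the 3 times (limma adjusted p = 0.0021). Aldoc read 1.30 and 1.88, 1.69 and 1.69, and 2.09 and 2.00 FPKM in wild type against 3.52 and 2.34, 2.83 and 2.10, and 3.5 and 4.58 in the labelled knockout. Its difference was 0.72 ± 0.17 at 24 h (limma adjusted p = 0.0338) and 0.56 ± 0.10 over the 3 times (limma adjusted p = 0.00563). Both genes lie at a few FPKM, and the calls at 24 h depended on the library set: the number of members called there was 6 without wild-type replicate 1, 1 without wild-type replicate 2, 0 without knockout replicate 1 and 1 without knockout replicate 2. Over the 3 times, the calls of P4ha2, Slc2a3 and Aldoc held with each of the 12 libraries left out and under each alternative fitted, whereas those of Pfkp (0.22 ± 0.06, limma adjusted p = 0.0493), Hk1 (-0.16 ± 0.05, limma adjusted p = 0.0482) and Ankrd37 (-0.26 ± 0.07, limma adjusted p = 0.0466) were lost in some of these fits. Only 3 members passed when any 1 of the 6 labelled knockout libraries was left out. The fibroblast marker sums given above were higher in the labelled knockout at each time, as were P4ha2, Slc2a3 and Aldoc. So were the sums of 7 endothelial markers (4.08 to 6.84 against 2.53 to 4.12 FPKM) and 6 B cell markers (2.10 to 3.18 against 0.420 to 1.60). At 24 h the 8 neutrophil markers summed to 69.1 to 105 FPKM against 151 to 153 in wild type. Hk1 and Ankrd37 were lower in the labelled knockout over the 3 times. The part of RNA from any of these cell types in these genotype differences was not tested.

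**Figure D4:**
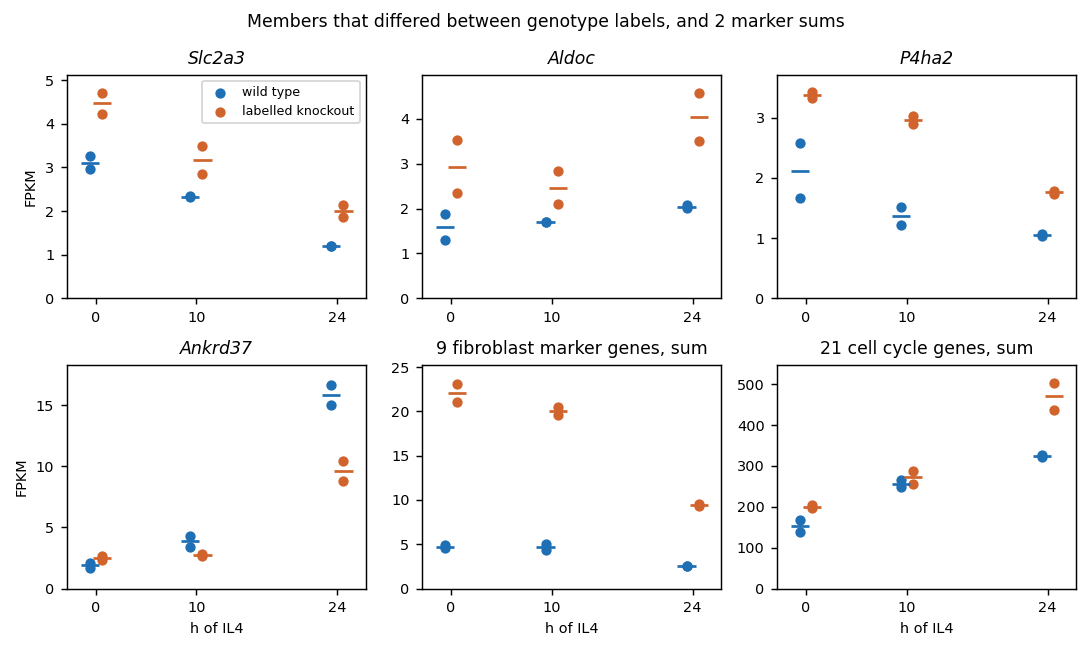
Level (y axis, FPKM from 0) of Slc2a3, Aldoc, P4ha2 and Ankrd37 and of 2 marker sums in each BMDM library (points; bars are group means) against hours of IL4 (x axis), wild type in blue and the labelled knockout in orange. Slc2a3, Aldoc and P4ha2 lie higher in the labelled knockout at each time, as does the sum of 9 fibroblast markers (9.30 to 23.0 against 2.52 to 5.00 FPKM), and Ankrd37 at 24 h lies lower (8.83 and 10.4 against 15.0 and 16.7 FPKM).

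Ankrd37 differed in the other direction at 24 h. In the labelled knockout it read 2.32 and 2.63 FPKM untreated, 2.66 and 2.82 at 10 h and 8.83 and 10.4 at 24 h, against 15.0 and 16.7 in wild type at the last time. No labelled knockout library reached the wild-type range there, and wild type had 1.65 times the mean of the labelled knockout. The difference was -0.67 ± 0.12 (log2, limma adjusted p = 0.0125), and without knockout 24 h replicate 1 it was -0.56 (limma adjusted p = 0.0997). Tested as a difference in the IL4 response, its value at 24 h was -0.93 ± 0.17 and missed the threshold (limma adjusted p = 0.0594). No member passed this interaction test at 24 h (13 members and 18.2% of all genes had an unadjusted p under 0.05; 0.295% of all genes passed) or at 10 h (1 member and 4.07% of all genes unadjusted; background 0.0951%, with 0.0571% higher and 0.0381% lower). Without wild-type 0 h replicate 1 there were 4 such members at 24 h, where 11.1% of all genes passed, and without wild-type 24 h replicate 1 there were 2, where 1.42% did, all with a negative difference. Cell cycle transcripts were higher in the labelled knockout at 24 h (14 of 21 genes called, sums of 437 to 503 against 322 to 326 FPKM), and their part in the Ankrd37 difference was not tested.

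The other pathway genes also contained genotype calls, most of them in the hypoxia list. Among the 34 other glycolysis and pyruvate genes tested, Eno2, the neuronal enolase, was higher in untreated labelled knockout cells (1.17 ± 0.17, log2, limma adjusted p = 0.00423) and at 10 h (0.75 ± 0.17, limma adjusted p = 0.0423), and none passed at 24 h (8 had an unadjusted p under 0.05). Among the 41 other hypoxia genes 3 were higher and 4 lower at 24 h. That is a larger share than the background of 7.43% (5.29% higher and 2.14% lower). Lox, a collagen cross-linking enzyme that fibroblasts express strongly, was higher (1.43 ± 0.12), and Vegfa, the angiogenic factor and HIF target, was lower (-0.84 ± 0.09). Vegfa read 19.1 and 21 FPKM in wild type and 10.7 and 10.7 in the labelled knockout at 24 h.

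In tumour macrophages 33 members were tested (at least 1 FPKM in at least 4 libraries), and P4ha2 and Adm fell below the filter. No member passed between knockout and wild-type hosts by limma, while 10 of 9897 genes (0.101%) did; 4 members and 16.9% of all genes had an unadjusted p under 0.05. The median log2 difference of the members was 0.18 against 0.09 over all genes tested, and it moved to 0.058 under median-of-ratios scaling and to -0.034 once the libraries were quantile normalized. In 3 members the groups did not overlap, as in 12.4% of the genes tested, so the count is no result about the members. Egln3, a prolyl hydroxylase that is itself a HIF target, read 6.63, 13.4, 9.30 and 13.6 FPKM in wild type and 4.62, 2.57, 6.12 and 3.90 in the knockout (-1.14 ± 0.27, limma adjusted p = 0.137). Hk3 read 23.5, 20.8, 18.6 and 11.8 FPKM in wild type and 45.1, 45.1, 32.3 and 24.1 in the knockout (0.93 ± 0.26, limma adjusted p = 0.163). Bnip3l read 28.6, 33.3, 28.8 and 24.4 FPKM in wild type and 20.1, 19.8, 23.6 and 20.1 in the knockout (-0.44 ± 0.13, limma adjusted p = 0.172). The sums of 2 marker lists also separated the genotypes. The 7 endothelial markers summed to 20.7 to 50.6 FPKM in the knockout and 5.57 to 19.4 in wild type. Among them Pecam1 read 3.36 to 46.3 FPKM and Kdr 0.119 to 5.19, while Egfl7, Emcn, Tek and Cldn5 stayed at or below 0.316. Only 2 of the 7 were tested, and neither passed. The 10 macrophage markers summed to 3944 to 5915 FPKM in the knockout and 6791 to 9140 in wild type. Their median log2 difference was -0.13, and none passed. The part of either list in the differences of Egln3, Hk3 and Bnip3l was not tested. Without wild-type library 8 no member passed either, and 23 genes did. Under either other scaling 6 genes were called, 1 higher and 5 lower, in place of 5 and 5, and the median of all genes moved from 0.088 to -0.013 with median-of-ratios scaling. Egln3 and Ddit4 (15.3 to 65.7 FPKM), which were below the filter in BMDM, passed it here.

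Some members split by library number. In 8 members, Aldoa, Egln1, Gapdh, Ldha, P4ha1, Pdk1, Pfkl and Tpi1, each of the libraries numbered 5 to 8 lay above each of those numbered 1 to 4, and in 2, Slc16a3 and Slc2a3, each lay below; both genotypes have 2 libraries in each range. Over all genes tested 5.37% lay above and 5.96% below in this way. Pdk1, for example, read 5.78 to 8.89 FPKM in libraries 1 to 4 and 12.3 to 14.3 in libraries 5 to 8. Tpi1 read 81.2 to 98.8 and 120 to 176 FPKM. Slc2a3 read 4.82 to 13.5 FPKM in libraries 1 to 4 and 1.91 to 3.86 in libraries 5 to 8. The labels do not say what the numbers mean. The sum of the 8 neutrophil markers moved with the same numbers, although the cells were sorted as CD11b+F4/80+. It was 5722 to 17955 FPKM in libraries 1 to 4 and 929 to 1592 in libraries 5 to 8. S100a8 (488 to 10590 FPKM) and S100a9 (336 to 6795) had the highest values, while Elane and Mpo stayed at or below 0.626. The part of these markers in the spread of the members was not tested. With the 2 ranges of library number as a term in the fit, added after the data were seen, again no member passed; Hk3 came to an adjusted p of 0.0628 and Egln3 of 0.078 by limma. Wild-type library 8 was lowest of the 8 for Slc2a1 (26.5 FPKM), Pfkp (8.58), Hif1a (37.5) and Ndrg1 (8.53), and the highest fibroblast marker sum was in the same library.

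**Figure D5:**
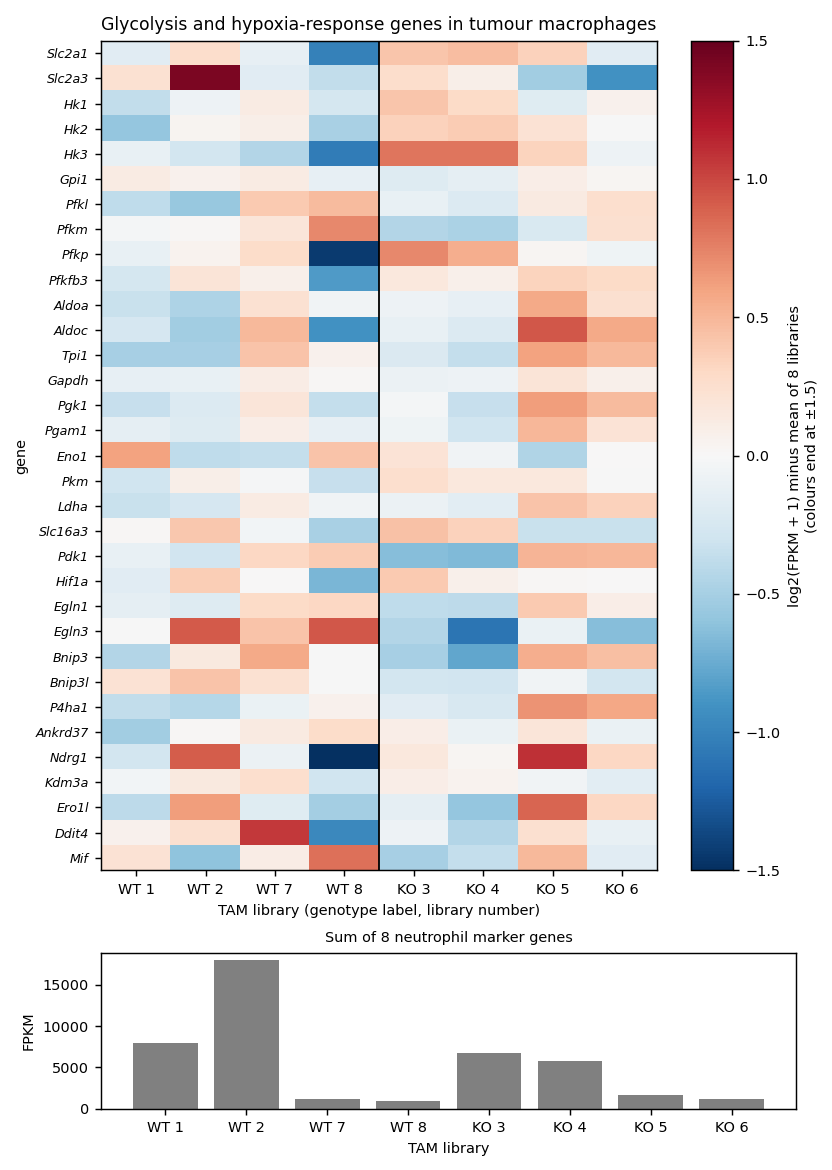
Upper panel: log2(FPKM + 1) of each of 33 members (y axis) minus its mean over the 8 TAM libraries (x axis: genotype label and library number), red above and blue below the mean, colours ending at ±1.5. Lower panel: summed FPKM of 8 neutrophil markers in the same libraries (929 to 17955). Egln3 and Bnip3l are lower and Hk3 higher in the 4 knockout libraries, and Tpi1 and Pdk1 are redder in libraries 5 to 8 of both genotypes.

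Members that passed between genotype labels in BMDM did not pass in the tumour macrophages, where Slc2a3 differed by -0.55 ± 0.41 (log2, limma adjusted p = 0.511), Aldoc by 0.60 ± 0.35 (limma adjusted p = 0.402) and Ankrd37 by 0.05 ± 0.18 (limma adjusted p = 0.911). These values are too imprecise to say that the 2 settings differ. In TAM Slc2a1 outweighed Slc2a3 (82.9% to 96.2% of the pair's FPKM), and Hk2 held 29.5% to 41.4% of the hexokinase sum there.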

How the data were processed

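RNA-seq values of 20 libraries (12 BMDM, 8 TAM) were analysed, and 4 samples of 5-hydroxymethylcytosine enrichment were not analysed here. The authors deposited 1 FPKM table for BMDM and 1 for TAM, made with TopHat and Cuffdiff on mm9 per the submitters' processing notes, with versions not given in the sources used here. The TAM table does not name its unit, and its values were read as FPKM. FPKM keep no read counts, so counting intervals could not be given; the number of fragments per library is not given in the sources used here. From the 2 tables, each of 23309 rows with 2 repeated symbols, 23307 symbols were used. No value column lacked a sample.

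Values were taken to log2(FPKM + 1), genes with at least 1 FPKM in at least 2 BMDM or 4 TAM libraries were kept, and limma 3.58.1 (R 4.3.3, intensity trend) was fitted to all 12 BMDM libraries in 6 groups and to the 8 TAM libraries in 2 groups, with Benjamini-Hochberg adjustment over all genes tested and a threshold of 0.05. The fits were tested on simulated data. A fold on the log2(FPKM + 1) scale understates the change of genes at low levels. The labels call the BMDM libraries biological replicates but do not tie them to animals, so p-values measure the spread between these libraries. The 35 members and the other lists were chosen with earlier results of these data known. Named were up to 5 members per direction with the largest called change in a comparison, paralogs side by side, and up to 4 genes with the smallest p from each list of other pathway genes, of which 1 is not reported here. Alternatives were a pseudocount of 0.1, no filter, a filter of 1 FPKM in every library, median-of-ratios scaling, quantile normalization, no intensity trend, a replicate block, fits to only the libraries compared, and each library left out. Promoter windows came from RefSeq (GRCm38.p6). Python 3.11.15, pandas 2.3.3 and matplotlib 3.10.9 were used.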

Additional observations from a re-analysis of the deposited data

Results flagged for a closer look

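Bnip3l stood out in 1 knockout TAM library. Library 5 read 23.56 FPKM, while the other 3 lay between 19.84 and 20.07, so that the gap to its neighbour was 0.938 of the group's range, above Dixon's 95% limit for 4 samples. This was 1 of 66 groups of TAM libraries examined, and chance alone exceeds the limit in about 1 of 20 groups.

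Bnip3l and Hk3 differed in opposite directions between the genotype labels in TAM and in BMDM at some times only. In TAM all 4 knockout libraries were below all wild-type libraries for Bnip3l (knockout mean 20.88 FPKM), while both labelled knockout BMDM libraries were above both wild-type libraries at 0 h and at 24 h. At 10 h the labelled knockout BMDM libraries were lower (20.9 and 22.7 against 24.1 and 25.8 FPKM), as in TAM. For Hk3 the 4 knockout TAM libraries were above all wild-type libraries (knockout mean 36.65 FPKM), while at 24 h both labelled knockout BMDM libraries were below both wild-type libraries. At 0 h and 10 h the mean Hk3 level in BMDM was higher in the labelled knockout (42.9 against 36.3 and 49.3 against 48.4 FPKM), as in TAM. These differences between tissues were not tested, and neither gene passed the threshold for genotype in either table.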

How the results depend on the processing

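Members called by limma changed with the setting as follows. With only the libraries compared, 24 h against 10 h gave 8 in wild type in place of 16 and 17 in the labelled knockout in place of 11, and genotype gave 2 at 10 h in place of 1 and 0 at 24 h in place of 3. Without a filter, 24 h against 10 h in the labelled knockout gave 7 and genotype at 24 h gave 1. Median-of-ratios scaling gave 2 for genotype at 0 h in place of 0, 6 at 24 h and 1 for the 24 h interaction in place of 0. Quantile normalization gave 4 at 0 h, 11 for the average over times in place of 6 and 1 for the 24 h interaction, and turned Gapdh at 24 h in wild type to -0.0853 (adjusted p = 0.659). A pseudocount of 0.1 gave 3 for the average. The cause of these changes was not tested, except that the first setting has fewer samples.

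With 1 library left out, the counts were 8 to 17 and 20 to 27 for 10 h and 24 h of IL4 in wild type, 7 to 19 for 24 h against 10 h, 8 to 9, 17 to 19 and 4 to 5 for the same comparisons in the labelled knockout, 0 to 8, 0 to 1 and 0 to 6 for genotype at 0 h, 10 h and 24 h, 3 to 8 for the average, 0 to 4 for the 24 h interaction, and 0 for the 10 h interaction and for TAM. Same-numbered BMDM replicates did not deviate together (r -0.141 to 0.149), so no offset shared by number was seen. Whether the numbers pair libraries from the same animals is not known, since the labels do not say. The replicate block gave 1 member for genotype at 0 h, and of 116 single values 11 lost their call and 105 did not. Numbers crossed at 24 h, added after the data were seen, gave 3 members and 684 genes for genotype. Among the other alternatives 883 of 974 single values kept direction and call.

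Counts over all genes also moved. With only the libraries compared they were 2908 in place of 5255 for 24 h of IL4 and 1332 in place of 2726 for 24 h against 10 h in wild type, and for genotype 118 in place of 284 at 0 h and 18 in place of 781 at 24 h. No filter gave 459 and the strict filter 138 at 0 h, the strict filter 149 in place of 299 at 10 h and 645 in place of 1045 for the average, and median-of-ratios scaling 1201 at 24 h. The 10 h interaction gave 31 without a filter and 2 with the strict filter in place of 10. The 24 h interaction gave 8 to 157 in place of 31. TAM gave 6 without a filter, with either scaling or without the trend, and 31 with library number as a term, in place of 10. What depth limits was not measured, since the tables hold FPKM and no read counts.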
